A study of Homo sapiens with 27 samples.

Results

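Genes of the plasminogen activator system and of blood coagulation, 7 in all, are described here in U937, a human myeloid leukaemia cell line of monocytic type: SERPINB2, PLAU, PLAUR, F3, THBD, F13A1 and TFPI. They are 7 of the 57905 genes in the table, and all 7 symbols were matched to an identifier through GENCODE release 44. The list was chosen from measured values of these same libraries, so the members' levels and fold changes are a description, with no p-value. Whether a member passed the thresholds applied to all genes is stated in the same sense and is not independent evidence of a change. RNA-seq compared 3 groups with 3 libraries each, namely control cells, cells exposed to matrine during 30 min and cells exposed to it during 24 h, both at 0.8 mg/ml. Matrine is a plant alkaloid, and the vehicle was ddH2O. The same 3 control libraries serve both times and their time in culture is not given in the sources used here, so 24 h of treatment and time in culture cannot be told apart. HL-60 and K562 samples of the experiment are not analysed here.

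Plasmin, the protease that dissolves fibrin, is made when an activator cuts plasminogen. Urokinase, encoded by PLAU, is such an activator, it is held at the cell surface by the urokinase receptor, encoded by PLAUR, and it is blocked by serpins such as PAI-2, encoded by SERPINB2. Coagulation starts when tissue factor, encoded by F3, binds factor VII, and TFPI is an inhibitor of the initiation of coagulation. Thrombomodulin, encoded by THBD, turns thrombin towards activation of the anticoagulant protein C, and F13A1 encodes the subunit of factor XIII that crosslinks fibrin. Monocytes are known as a source of tissue factor, urokinase and PAI-2.

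Total counts lay between 17314931 and 21930018 per library, with 4.99% to 5.28% in the top 10 genes. Replicate libraries differed beyond sampling noise, and the labels do not say that they are separate cultures, so any p-value measures the spread between these samples, which may be technical. Over all 9 libraries, 6 of 9 monocytic marker genes had a mean above 1 FPKM, a read count scaled to library depth and gene length. ITGAX was among the 6 through its 24 h level alone. CD14, CSF1R and CD68 were at or below 1 FPKM. The summed FPKM of the monocytic markers was 406 to 410 in control libraries, 401 to 426 after 30 min and 364 to 369 after 24 h. LYZ made up most of that sum, with a mean of 292 FPKM in the control and 244 at 24 h, while ITGAX went from 0.607 to 3.90 and CD4 from 28.6 to 43.7, so single monocytic markers moved in both directions at 24 h. The part of these shifts in the members' values was not tested. The T cell markers CD3D and CD3E, the platelet genes PF4, PPBP and GP9 and the endothelial genes CDH5 and TEK had no count in any of the 9 libraries. No list for erythroid, platelet, endothelial, fibroblast, epithelial or liver cells had a summed FPKM above 0.20.

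The start regions of the members differ in sequence. RefSeq promoter windows on GRCh38.p14, each 300 bases long with 250 before and 50 after a start site, were found for 6 of the 7 members. They are shown for the 4 members whose levels the results turn on and that have a window, 5′ to 3′ on the gene's own strand. Capitals mark matches, on either strand, to the AP-1 motif TGANTCA, the GC box GGGCGG or the TATA motif TATAAA. SERPINB2 is on the plus strand at chr18:63887455-63887754, PLAU on the plus strand at chr10:73910882-73911181, PLAUR on the minus strand at chr19:43670120-43670419 and F3 on the minus strand at chr1:94541710-94542009.
SERPINB2: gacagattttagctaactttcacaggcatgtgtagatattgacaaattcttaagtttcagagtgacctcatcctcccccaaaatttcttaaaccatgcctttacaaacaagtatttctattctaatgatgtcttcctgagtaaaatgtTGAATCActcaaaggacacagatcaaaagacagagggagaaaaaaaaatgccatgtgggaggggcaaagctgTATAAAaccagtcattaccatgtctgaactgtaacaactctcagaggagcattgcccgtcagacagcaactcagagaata
PLAU: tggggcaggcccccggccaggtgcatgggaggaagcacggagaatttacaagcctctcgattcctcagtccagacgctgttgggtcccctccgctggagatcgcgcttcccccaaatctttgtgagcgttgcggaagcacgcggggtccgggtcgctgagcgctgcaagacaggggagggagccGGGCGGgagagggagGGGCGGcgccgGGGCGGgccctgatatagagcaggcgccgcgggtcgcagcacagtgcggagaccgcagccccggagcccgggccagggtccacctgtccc
PLAUR: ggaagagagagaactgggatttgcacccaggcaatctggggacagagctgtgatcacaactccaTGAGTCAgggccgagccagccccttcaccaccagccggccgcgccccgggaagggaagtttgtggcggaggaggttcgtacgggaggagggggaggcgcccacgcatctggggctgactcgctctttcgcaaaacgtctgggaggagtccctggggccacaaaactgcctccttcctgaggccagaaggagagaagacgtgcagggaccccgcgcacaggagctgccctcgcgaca
F3: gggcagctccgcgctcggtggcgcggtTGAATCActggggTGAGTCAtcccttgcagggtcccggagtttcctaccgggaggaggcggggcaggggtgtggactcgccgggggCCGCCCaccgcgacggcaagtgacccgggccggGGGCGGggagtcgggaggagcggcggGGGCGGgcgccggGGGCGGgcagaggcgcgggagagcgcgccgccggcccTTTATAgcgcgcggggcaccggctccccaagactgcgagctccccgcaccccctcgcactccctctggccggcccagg

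The AP-1 motif was found in the windows of SERPINB2, PLAUR and F3, which makes 3 members, and 7.71% of all 35097 promoter windows hold it. With the first transcribed base as 1, it lies from -102 to -96 in SERPINB2 and from -186 to -180 in PLAUR, while F3 has a match from -223 to -217 and another from -210 to -204. The TATA motif, held by 11.5% of all windows, lies from -30 to -25 in SERPINB2 and from -28 to -23 in F3. The GC box, held by 44.9%, occurs 3 times in the PLAU window shown and 4 times in F3, and PLAU has a second window, at chr10:73910360-73910659, without any of these motifs. The windows thus range from 39.0% G and C in SERPINB2 to 77.3% in F3, where the middle of all windows lies at 58.7%. Of the other motifs searched on both strands, neither TGACGTCA (1.85% of windows) nor CACGTG (7.25%) was found in a member, and the NF-kB consensus (11.3%) was found in F13A1, from 13 to 22. A match is a run of letters and not a measured binding site.

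Across the 9 libraries, SERPINB2 (ENSG00000197632, chromosome 18, 63871692 to 63903888 on the plus strand of GRCh38) was the most abundant member in control cells. Its level was 57.03, 50.6 and 55.17 FPKM in the control libraries, 28.64, 31.67 and 29.23 after 30 min, and 17.94, 19.42 and 19.05 after 24 h. The 3 groups did not overlap, and each later group lay below the one before. In edgeR's fit, SERPINB2 was 1.80-fold lower at 30 min than in the control (log2 -0.85, SE 0.0635) and 3.01-fold lower at 24 h (log2 -1.59, SE 0.0657). Between 30 min and 24 h it was 1.67-fold lower again (log2 -0.74, SE 0.0658). Between 1013 and 3259 reads per library lie behind these values. In GENCODE release 44 its exons overlap a gene on the same strand, ENSG00000289724, which has no row in the table.

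PLAU (ENSG00000122861, chromosome 10, 73909177 to 73917496, plus strand) had a lower level at 30 min and a higher one at 24 h. It stood at 16.59, 15.89 and 15.07 FPKM in control libraries, at 11.02, 9.83 and 12.11 after 30 min, and at 31.91, 30.34 and 30.6 after 24 h. All 3 libraries of 30 min lay below all control libraries, and all 3 of 24 h lay above them. The fold was 1.43 at 30 min (log2 -0.52, SE 0.0773), which is short of the 1.5-fold needed for a call (log2 -0.59 and called without replicate 3 of the 30 min group), and 1.87 at 24 h (log2 0.90, SE 0.0738). From 30 min to 24 h PLAU was 2.68-fold higher (log2 1.42, SE 0.0755). Exons of PLAU overlap the antisense gene C10orf55, and the strand setting of the counting is not given, so reads of this pair cannot be told apart. C10orf55 had 9 to 21 counts in control libraries, 11 to 18 after 30 min and 56 to 71 after 24 h, against 1823 to 1972 for PLAU at 24 h.

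PLAUR (ENSG00000011422, chromosome 19, 43646095 to 43670547, minus strand) moved less than the protease it binds. Its level was 13.28, 14.18 and 13.11 FPKM in control libraries, 13.08, 11.13 and 13.09 after 30 min, and 12.55, 13.24 and 12.59 after 24 h. The highest 30 min library was just under the lowest control library, and the 24 h libraries overlapped the control. The log2 fold change was -0.11 (SE 0.0737) at 30 min and -0.14 (SE 0.0737) at 24 h, neither of them called. Without replicate 2 of the 30 min group, the lowest library, the 30 min value was -0.0096.

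F3 (ENSG00000117525, chromosome 1, 94529173 to 94541759, minus strand) was the member with the lowest level among the 5 that were detected well. It stood at 2.14, 2.1 and 2.09 FPKM in control libraries, at 0.79, 0.66 and 0.73 after 30 min, and at 0.61, 0.65 and 0.56 after 24 h. Every treated library, at either time, lay below every control library. F3 was 2.86-fold lower at 30 min (log2 -1.52, SE 0.171) and 3.64-fold lower at 24 h (log2 -1.86, SE 0.178), the greatest fold among the members at both times. From 104 to 128 reads per control library, the counts went to 39 to 50 at 30 min and 35 to 38 at 24 h. F3 passed the filter on low values, a mean above 1 FPKM over the 6 libraries compared, because of its control level alone. It was therefore not tested between 24 h and 30 min, where a fit without that filter gave a log2 difference of -0.39 (SE 0.212).

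THBD (ENSG00000178726, chromosome 20, 23045633 to 23049672, minus strand) had a low level at 30 min that was not seen at 24 h. Its level was 7.97, 7.82 and 8.15 FPKM in control libraries, 4.42, 5.02 and 5.48 after 30 min, and 7.51, 8.29 and 7.34 after 24 h. The 30 min libraries lay below all others, while the 24 h libraries overlapped the control. THBD was 1.59-fold lower at 30 min (log2 -0.67, SE 0.0871). At 24 h its log2 difference from the control was -0.11 (SE 0.0845), and from 30 min to 24 h it was 1.48-fold higher (log2 0.56, SE 0.0868), just under the fold needed for a call. Without replicate 3 of the 30 min group that value was 0.62, and without replicate 3 of the 24 h group 0.60, both past it.

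**Figure D1:**
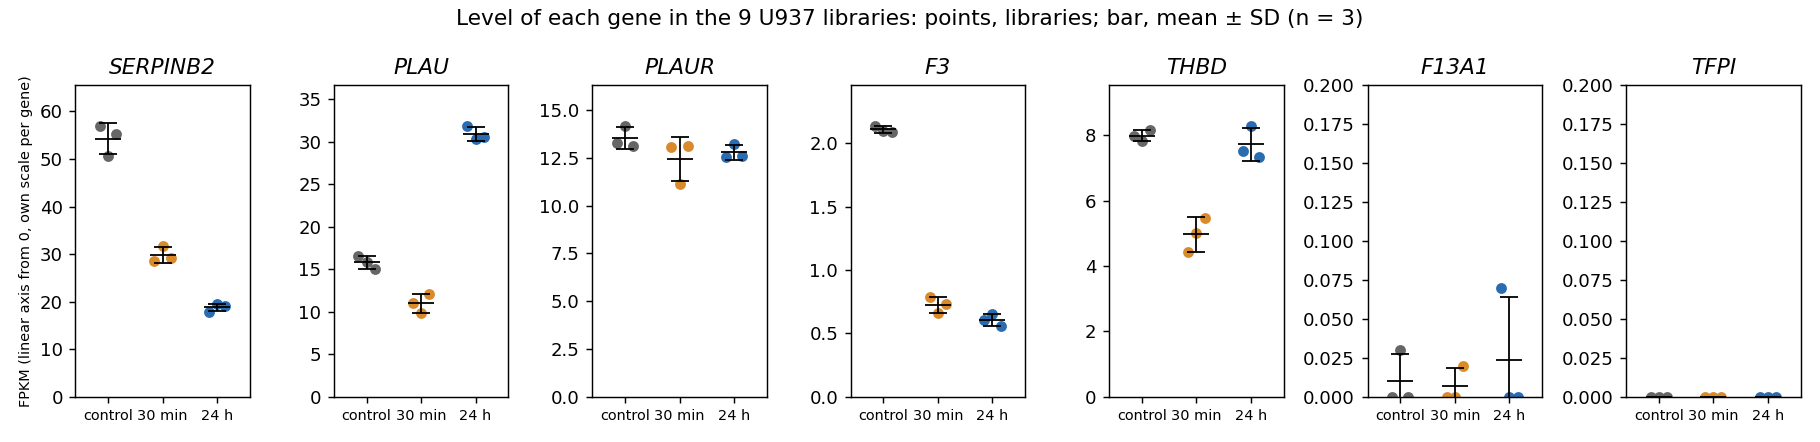
FPKM of each member (vertical axis, linear from 0, its own scale per gene) in control cells and after 30 min and 24 h of matrine; points are libraries and bars the mean ± SD (n = 3). SERPINB2 goes down from a mean of 54.3 to 29.8 and 18.8, PLAU goes from 15.9 to 10.99 and 31.0, F3 stays low after 2.11 in the control, and THBD is low at 30 min, at 4.97.

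The remaining pair had few reads or none. F13A1 (ENSG00000124491, chromosome 6, 6144084 to 6321013, minus strand) had counts of 0, 3 and 0 in control libraries, 0, 0 and 2 at 30 min and 7, 0 and 0 at 24 h, so no fold is given. TFPI (ENSG00000003436, chromosome 2, 187464230 to 187565760, minus strand) had 0 counts in all 9 libraries, and 3 reads, the limit a count of 0 allows, amount to 0.137 to 0.173 CPM (counts scaled to the library total). That limit covers counting error only.

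At 30 min, 3 members passed the thresholds as lower, here termed called lower, and 0 higher, of 5 that passed the filter out of 7. A call means an adjusted p below 0.05 with edgeR's quasi-likelihood test and a fold of at least 1.5. Over all 11587 genes tested at 30 min, 0.544% were called lower and 0.0949% higher. F3 ranked 28, SERPINB2 84, THBD 155, PLAU 258 and PLAUR 2480 from the lowest fold change. These ranks show where the members sit in the table. Since the list was drawn from these libraries, nothing is read from the number of members called in this or either of the other comparisons.

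At 24 h against the control, 2 members were called lower, SERPINB2 and F3, and PLAU was called higher, where 11.6% of 12035 genes were lower and 14.7% higher. F3 ranked 30 and SERPINB2 54 from the lowest. From 30 min to 24 h, 4 members passed the filter, SERPINB2 being called lower and PLAU higher, against 11.3% lower and 15.7% higher of 11981 genes.

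**Figure D2:**
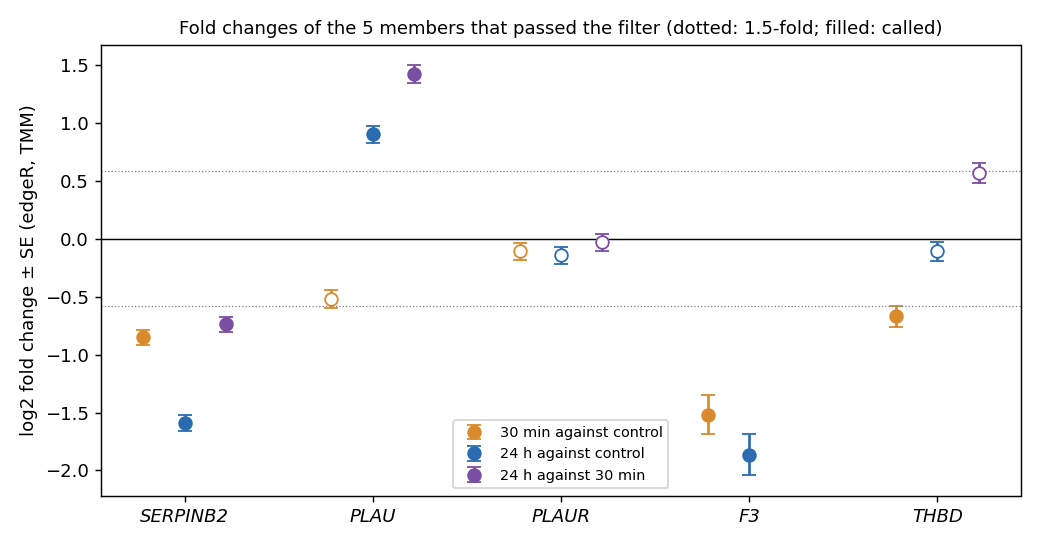
Log2 fold change ± SE (vertical axis) of the 5 members that passed the filter, in 3 comparisons; filled points were called, open ones were not, and dotted lines mark 1.5-fold. SERPINB2 and F3 are below zero at both times, PLAU changes side from -0.52 to 0.90, and PLAUR stays near zero.

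Urokinase and its inhibitor PAI-2 can be set side by side on the FPKM scale, which divides by gene length. The ratio of PLAU to SERPINB2 was 0.293 ± 0.0205 in control libraries, 0.370 ± 0.0535 at 30 min and 1.65 ± 0.114 at 24 h (SD, n = 3). The control range, 0.273 to 0.314, just overlapped that of 30 min, 0.310 to 0.414, and the range at 24 h, 1.56 to 1.78, overlapped neither. In transcript level the inhibitor thus exceeded the activator in each control and 30 min library and was exceeded by it in each 24 h library. The ratio of PLAU to PLAUR was 1.17 ± 0.0675 in the control, 0.884 ± 0.0413 at 30 min and 2.42 ± 0.126 at 24 h (SD, n = 3). These are ratios of mRNA levels, and protein or activity was not measured here.

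Genes whose pattern over the 9 libraries was most like a member's were sought among 11380 genes by Pearson's r of log2 CPM. The closest to SERPINB2 were POLR3D (r = 0.985), NETO2 (r = 0.982) and MYB (r = 0.981). SERPINB2 had 35 genes at or above 0.95 and PLAU 225, led by LPCAT1 (r = 0.994), LINC00926 (r = 0.993) and ALAS1 (r = 0.991). THBD had 8, led by JUN (r = 0.980), IRS2 (r = 0.979) and ZFAND2A-DT (r = 0.976), and JUN was itself at -1.15 at 30 min and -0.25 at 24 h on the log2 scale against the control. PLAUR had 0, its closest being ZNHIT2 (r = 0.911), TNFRSF12A (r = 0.887) and TRAPPC9 (r = 0.882). The libraries fall into 3 groups, which these values share, so r describes likeness of pattern and is not tested. The size of a change does not enter r. On the log2 scale against the control, POLR3D was at -0.24 at 30 min and -0.52 at 24 h, and MYB at -0.27 and -0.42. Both changes are smaller than those of SERPINB2. LPCAT1, at -0.08 and 0.17, changed less than PLAU, whereas ZNHIT2, at -0.34 and -0.39, changed more than PLAUR.

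Around the members, 79 other genes of plasminogen activation and coagulation were read. Of these, 15 had no count in any library, and 32 were tested at 30 min and 33 in each of the other comparisons. At 30 min 0 of 32 were called in either direction by edgeR, beside 0.0949% higher and 0.544% lower of all 11587 genes tested. At shares that low nothing is read from 0 of 32. DESeq2 and limma also called 0 of them, beside 13 higher and 62 lower of all genes with DESeq2. With limma on log2(FPKM + 0.1) these were 10 and 60, and on log2(FPKM + 1) 7 and 52. In edgeR's fit 4 of the 32 had an unadjusted p below 0.05, a share not computed over all genes. The median log2 fold change of the 32 genes was 0.03, against -0.0043 for all genes tested. One of them, F2RL3, which encodes the thrombin receptor PAR4, had 7.21 FPKM in the control and 5.14 at 30 min on average, a log2 fold change of -0.48 with an adjusted p of 0.0222 that fell short of the fold needed. Without replicate 3 of the 30 min group F2RL3 was called lower.

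At 24 h against the control 6 of the 33 rose and 2 fell, or 18.2% and 6.06%, beside 14.7% and 11.6% of all genes tested. Their median was 0.21 against -0.0056 for all genes tested. S100A10, the annexin A2 partner that binds plasminogen at the cell surface, rose from 10.4 ± 0.899 to 26.1 ± 0.185 FPKM (log2 1.26, SE 0.0900, adjusted p = 2.0e-10). ITGAM and ITGB2, the chains of the integrin Mac-1 that binds the urokinase receptor, rose by log2 1.24 (adjusted p = 5.5e-09) and 0.91 (adjusted p = 1.7e-11). ITGB2 reached 223 FPKM from 114 in the control, and ITGAM 3.15 from 1.28. They were 2 of 7 receptor partners tested, the other 5 (ITGB1, ITGAV, ITGA5, MRC2 and IGF2R) not being called, and S100A10 was 1 of 5 plasminogen binding proteins tested. With no fold threshold ITGAV, ITGA5, MRC2 and IGF2R were called higher as well. Of the plasminogen binding proteins, ANXA2 and H2BC12 were then called higher and ENO1 lower.

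Among anticoagulant genes ANXA5, which covers phosphatidylserine, rose by log2 1.10 (adjusted p = 5.7e-12), and PROCR, the receptor that presents protein C to thrombomodulin, fell by 0.64 on the log2 scale (adjusted p = 1.3e-05). PROCR was at 22.8 ± 1.84 FPKM in the control and 15.3 ± 1.61 at 24 h (SD, n = 3), and without control replicate 2 its change, -0.57, was short of the fold needed. F12, coagulation factor XII, fell by 0.66 (adjusted p = 0.00057), to -0.53 without control replicate 2 and -0.54 without 24 h replicate 2, both short of a call. With library totals PROCR was not called. With limma on log2(FPKM + 0.1) or log2(FPKM + 1) neither PROCR nor F12 was called. The other 2 genes called higher, the coagulation cofactor gene F8 and the transglutaminase gene TGM3, a relative of F13A1, passed the filter through their 24 h level alone and so had to differ. F8 was at 0.787 FPKM in the control and 1.40 at 24 h (log2 0.78), and TGM3 at 0.757 and 2.25 (log2 1.52). With limma on log2(FPKM + 1) F8, at 0.43, was not called.

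From 30 min to 24 h, 8 of 33 rose and 2 fell, or 24.2% and 6.06%, beside 15.7% and 11.3% of all genes tested, and F8 and TGM3 again passed the filter through the 24 h group alone. The median was 0.23 against 0.022 for all genes tested. GAS6, a vitamin K dependent ligand of receptor kinases, and F2RL3 joined the genes that rose, by log2 0.60 (adjusted p = 4.2e-05) and 0.64 (adjusted p = 2.1e-05). Without replicate 1 or replicate 2 of the 30 min group both were short of the fold needed, F2RL3 being at 0.58 and 0.53 and GAS6 at 0.58 and 0.56. GAS6 was also short of it without replicate 1 of the 24 h group, at 0.56, where F8 no longer passed the filter, and PROCR was short of it without replicate 1 of the 30 min group, at -0.55. With TMM scaling on all genes of the table neither GAS6, at 0.54, nor F2RL3, at 0.58, was called, and GAS6 was not called with limma on log2(FPKM + 1), at 0.45, or with no FPKM filter, at 0.55. PROCR was not called with library totals or with limma on log2(FPKM + 0.1) or log2(FPKM + 1). With limma on log2(FPKM + 1) F8, at 0.47, was not called either.

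**Figure D3:**
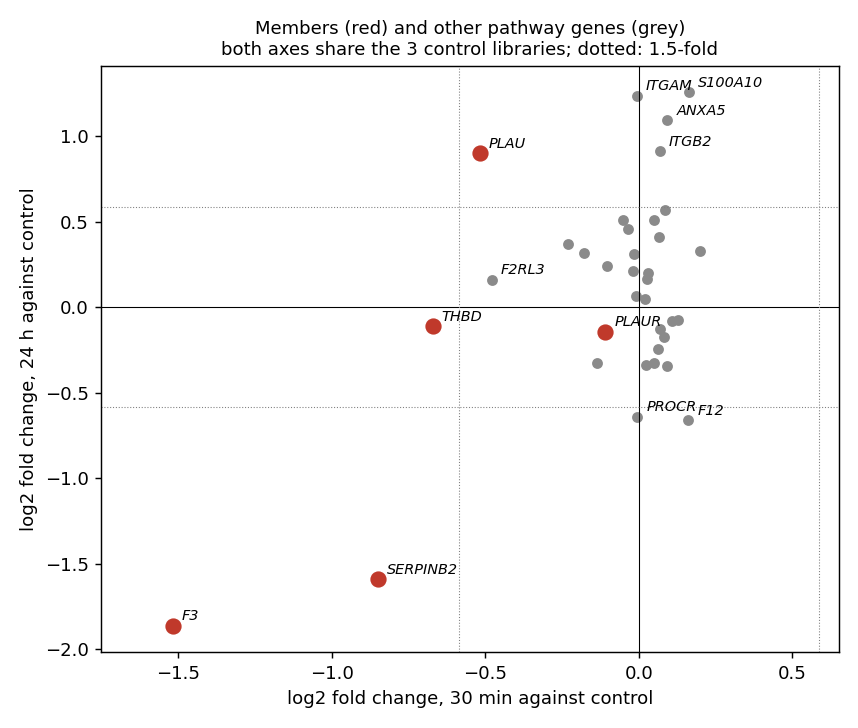
Log2 fold change at 30 min (horizontal axis) and at 24 h (vertical axis) against the same 3 control libraries, for members (red) and other pathway genes tested (grey); dotted lines mark 1.5-fold. F3 and SERPINB2 lie at the lower left, PLAU at the upper left with -0.52 and 0.90, and S100A10, ITGAM, ANXA5 and ITGB2 high near the vertical line.

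SERPINE2, which encodes protease nexin-1, another serpin that inhibits urokinase, was at 2.98 ± 0.325 FPKM in the control, 3.01 ± 0.161 at 30 min and 2.46 ± 0.0889 at 24 h (SD, n = 3), and was not called. Its level was below that of SERPINB2 in each of the 9 libraries.

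**Figure D4:**
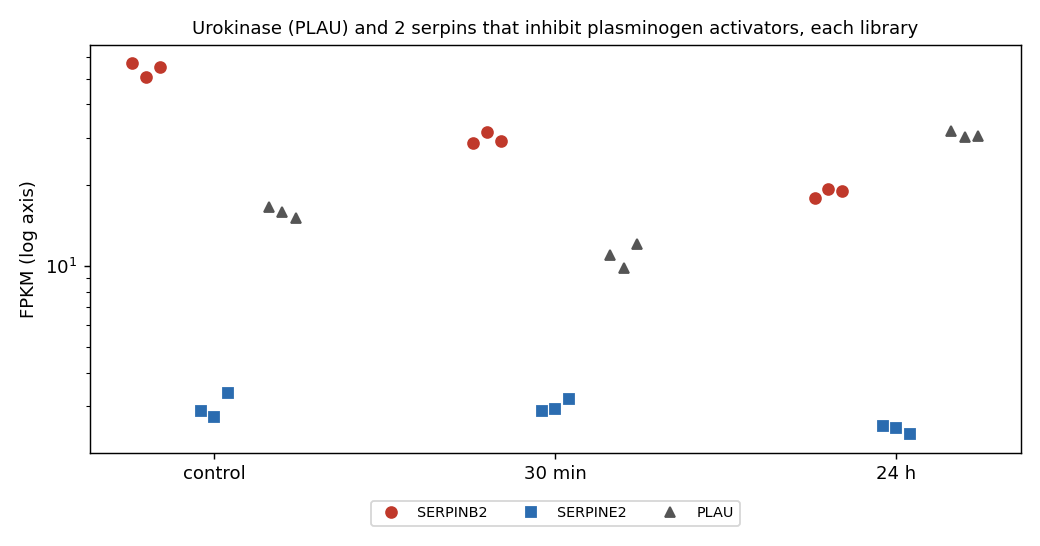
FPKM (vertical log axis) of PLAU and of the inhibitor genes SERPINB2 and SERPINE2 in each of the 9 libraries by group. SERPINB2 lies above PLAU in the control and at 30 min and below it at 24 h, and SERPINE2 lies below both throughout.

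Of the genes that would complete either cascade, PLG, the gene of plasminogen, F7, the partner of tissue factor, and TFPI2 had 0 counts in all 9 libraries. PLAT, the tissue type activator, had 3 to 11 counts per library, and F10, the factor activated by tissue factor and factor VII, had 12 to 20. Urokinase was thus the plasminogen activator with the higher transcript level here, at 9.83 FPKM or more in each library against at most 0.07 for PLAT.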

How the data were processed

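RNA-seq libraries (VAHTS mRNA-seq V3 kit per the labels, paired-end reads) of 9 U937 samples were used, 3 per group, grouped by GEO's labels. Per the submitters' processing notes the authors used cutadapt 1.9.1, HISAT2 2.0.1 and HTSeq 0.6.1, and deposited raw counts and FPKM per Ensembl gene. The paper names hg38 and the notes GRCh37, and the table holds no coordinates, so printed positions are those of GENCODE release 44 and RefSeq on GRCh38.p14. Annotation release, strand setting and handling of multiply mapped reads are not given in the sources used here. The deposited FPKM values served for levels and the filter on low values, and the deposited counts for the tests. Of 57905 identifiers, 51996 were matched to a symbol. The 18 samples of other lines are not analysed here.

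Genes with a mean above 1 FPKM over the 6 libraries compared were tested with edgeR 4.0.16 (R 4.3.3), with TMM scaling and the quasi-likelihood test on all 9 libraries and Benjamini-Hochberg adjustment. SE was taken as the absolute log2 fold change divided by the square root of the F statistic. Calls needed an adjusted p below 0.05 and a fold of 1.5. The script was tested on simulated data. Alternatives used limma 3.58.1 on log2(FPKM + 0.1) or log2(FPKM + 1), DESeq2 1.42.0, other filters, scalings and folds, and each library left out. TMM on all genes was added after the data were seen. The members and gene lists were chosen with earlier results of these data known. Genes named are the members, listed genes called in a comparison, PLAT, PLG, TFPI2, F7 and F10, and the 3 genes most like each member tested in all 3 comparisons. Any other gene, such as SERPINE2 and C10orf55, was named after its values were seen. A marker list and a gene named by the rule are not reported here. Depth of 17314931 to 21930018 counts per library limits genes with few reads.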

Additional observations from a re-analysis of the deposited data

Results flagged for a closer look

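PLAU lay below all 3 control libraries in each 30 min library and above them in each 24 h library, with a log2 difference of 1.42 between the times. PLAU passed the thresholds for all genes in this comparison, but it was chosen on these values, so the difference counts as not tested.

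For 26 of 33 other pathway genes tested, the effects at 30 min and 24 h against the shared control differed at an adjusted p below 0.05 by edgeR's test of 24 h against 30 min, and for 10 of them by at least 1.5-fold as well. Of all 11981 genes tested there, 3981 were higher and 3844 lower at an adjusted p below 0.05. With the 1.5-fold threshold added, 15.7% were higher and 11.3% lower. Of the 10 pathway genes, F8 and TGM3 passed the filter on low values through their 24 h level alone. The log2 difference was 2.10 for TGM3, 1.25 for ITGAM, 1.10 for S100A10, 1.00 for ANXA5, 0.85 for F8, 0.85 for ITGB2, 0.64 for F2RL3 and 0.60 for GAS6. It was -0.82 for F12 and -0.63 for PROCR.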

How the results depend on the processing

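No result changed direction among the called values, and the calls of SERPINB2, F3 and THBD at 30 min and of SERPINB2, F3 and PLAU at 24 h against the control held wherever the fold threshold stayed at 1.5. With log2(FPKM + 1) in limma, F3 was at -0.85 at 30 min and -0.95 at 24 h, since the pseudocount is large beside its level. At a fold of at least 2, members called lower at 30 min numbered 1, members called higher at 24 h 0 and members called lower from 30 min to 24 h 0. Over all genes tested, 23 of 11587, 751 of 12035 and 340 of 11981 were called at that fold, in the same order. At a fold of 1.5, members called lower at 30 min numbered 3 to 4 with a library left out, PLAU being added without 30 min replicate 3. In that setting 63 of all 11593 genes tested were lower. From 30 min to 24 h, 2 members, PLAU and THBD, were called higher with library totals, with limma at 0.1 and with no fold threshold. Members called higher numbered 1 to 2 with a library left out, THBD being added without replicate 3 of the 30 min or of the 24 h group. In all genes tested 1881 of 11981 were higher in the main fit, 2248 with library totals, 2161 with limma at 0.1 and 3981 with no fold threshold. Without 30 min replicate 3, 1936 of 12056 were higher, and without 24 h replicate 3, 1841 of 11933. PLAUR from 30 min to 24 h ranged from -0.12 to 0.04, and is not called.

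Of the other pathway genes, those lower at 30 min numbered 1 with no fold threshold and 0 to 1 with a library left out. With no fold threshold, 154 of all 11587 genes tested were lower at 30 min, and without 30 min replicate 3, 63 of 11593. At 24 h against the control, 10 rose and 5 fell with no FPKM filter, 17 and 8 with no fold threshold, 1 fell with library totals, 0 fell with limma at either pseudocount or at a fold of 2, and 0 to 2 fell with a library left out (0 without control replicate 2, 1 without 24 h replicate 2). In all genes tested these were 2778 and 1900 of 20453 with no FPKM filter, and 3688 and 3939 of 12035 with no fold threshold. Of the 12035 genes, 1161 fell with library totals, 1158 or 896 with limma and 375 at a fold of 2. Without control replicate 2, 1414 of 12111 fell, and without 24 h replicate 2, 1387 of 11953. From 30 min to 24 h, 13 rose and 5 fell with no FPKM filter, 17 and 9 with no fold threshold, 4 and 0 at a fold of 2, 1 fell with library totals or with limma at either pseudocount, and 1 to 2 fell with a library left out (1 without 30 min replicate 1). In all genes tested these were 2927 and 1888 of 20453 with no FPKM filter, and 3981 and 3844 of 11981 with no fold threshold. Of the 11981 genes, 791 rose and 340 fell at a fold of 2, and 1069 fell with library totals and 1045 or 820 with limma. Without 30 min replicate 1, 1355 of 12074 fell. The cause was not tested.

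Replicate numbers are shared between groups, but same-numbered libraries did not deviate together (correlations from -0.34 to 0.14 over 9 pairs), so the block only tests a shared number; with the replicate block, 3 members were called lower at 30 min, as without it. Low counts limit F13A1 and TFPI.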

Other observations

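Further pathway genes lay under the main filter. With a mean above 1 FPKM needed in either group, KLKB1, which encodes plasma prekallikrein, was higher at 24 h than in the control by log2 1.28, with 16 to 32 counts in control libraries and 56 to 77 at 24 h. F2R, the gene of the thrombin receptor PAR1, was lower in the same comparison, with 85 to 102 counts in control libraries and 37 to 73 at 24 h. Neither was tested between these groups under the main filter. Each passed the filter on either group through the group where it was high, so a difference was to be found by construction.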
